A study of Mus musculus with 16 samples.

Results

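Platelet chemokines and receptors were followed in non-tumour colon through 7 genes, Ppbp, Pf4, Treml1, Gp1bb, Clec1b, Itga2b and Gp9, taken by their names in the scanner files. They had 11 of the 55681 probes on the array, and 6 of them were among the 24543 genes tested. These genes were picked with their group values in view, so their differences between groups are given as a description and not as a test. Where their calls in a fit over all genes are counted, nothing is read from the counts. The tissue came at day 28 from 16 ApcMin/+ mice, which carry a mutated copy of the tumour suppressor Apc in every group. The 6 5-ASA mice drank dextran sulphate sodium (DSS), a compound that injures the colon lining, at 1.5 w/v% over 3 days, and received 5-aminosalicylic acid (5-ASA), an anti-inflammatory drug. The 6 Control mice were given the same DSS and saline, and the 4 Sham mice drank water alone. For the drug, the protocol names the intracolorectal route over 28 days, whereas the sample descriptions name drinking water over the 25 days after DSS. Age and sex are not given in the sources used here.

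Platelets are cell fragments shed by megakaryocytes, and they carry RNA from those cells although they have no nucleus. Their alpha granules hold the chemokines Ppbp (Cxcl7) and Pf4 (Cxcl4), which are released when platelets are activated. Their surface carries receptors that bind von Willebrand factor (Gp1bb and Gp9, as parts of the GPIb-IX-V complex), fibrinogen (Itga2b, paired with Itgb3) and podoplanin (Clec1b), and Treml1 moves from the granules to the surface on activation. Hba-a1, the alpha globin of red cells, is set beside each gene as a measure of blood in the tissue.

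Ppbp and Pf4 are neighbours on chromosome 5, with no gene of the RefSeq table (GRCm38.p6) between them, in a row of chemokine genes that also holds Cxcl5, Cxcl3, Cxcl15, Cxcl1 and Cxcl2. Their probes start 3305 bases apart in mm9, the build of the files. The first 30 of 60 bases of each probe are shown because the pair gave the clearest contrast among the 7 genes. The Ppbp probe lies at chr5:91198970-91199029 and the Pf4 probe at chr5:91202275-91202334, both on the plus strand.
Ppbp probe: ctggtcatgaccatgtttttccaatttctt
Pf4 probe: ctggagagttaggtatcagctgcctaaatg

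The RefSeq promoter windows of the pair (GRCm38.p6, plus strand, 250 bases before to 50 after the gene start) are shown because neighbouring genes of the same cell lineage differed in their values. They were searched on both strands for GATA words (AGATAA or AGATAG or TGATAA or TGATAG) and ETS words (AGGAAG or CGGAAG), the letters bound by factors of megakaryocytes, and the words of the 2 kinds did not overlap in them. Capitals mark the matches. The Ppbp window is chr5:90768268-90768567 and the Pf4 window chr5:90772185-90772484.
Ppbp promoter: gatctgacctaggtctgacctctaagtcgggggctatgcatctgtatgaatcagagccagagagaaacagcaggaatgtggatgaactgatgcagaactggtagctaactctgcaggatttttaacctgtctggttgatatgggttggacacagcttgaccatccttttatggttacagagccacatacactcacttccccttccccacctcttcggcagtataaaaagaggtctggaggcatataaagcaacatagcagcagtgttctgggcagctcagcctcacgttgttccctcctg
Pf4 promoter: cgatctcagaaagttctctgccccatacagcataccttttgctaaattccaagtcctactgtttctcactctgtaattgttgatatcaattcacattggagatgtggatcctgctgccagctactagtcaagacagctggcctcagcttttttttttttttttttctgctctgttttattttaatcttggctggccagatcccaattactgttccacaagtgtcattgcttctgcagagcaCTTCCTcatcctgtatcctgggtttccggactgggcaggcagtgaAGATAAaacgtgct
The Pf4 window held 1 GATA match, after the gene start, and 1 ETS match, on the other strand and before the start. The Ppbp window held neither set of letters, which says nothing about factors that bind there. Of the 7 genes, 3 had a GATA match and 4 had an ETS match in this window. Among all 32851 windows of this length, 29.8% held a GATA word, 46.5% an ETS word and 12.6% both.

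Values are log2 intensities relative to the 75th percentile of the same array, so 0 is that percentile. A spot was well above background by the scanner software's own flag, and a spot not above background carries a surrogate value in place of a measured one. No surrogate value was well above background. The 16 arrays lay in 2 rows on 2 slides. All 6 5-ASA mice were in the second row with Control 3 and 6. All 4 Sham mice were in the first row, together with Control 1, 2, 4 and 5. In the second row 53.0% to 57.7% of spots were well above background and the median surrogate was 8.21 to 11.2 intensity units, against 59.8% to 65.2% and 4.06 to 5.76 units in the first row. Sham and 5-ASA mice therefore never shared a row, and row and group cannot be told apart between them. Markers of colon epithelium, endothelium and macrophages were well above background on every array (9 of 9, 9 of 9 and 8 of 8 tested markers). In bulk tissue, fewer platelets and less RNA per platelet cannot be told apart.

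Ppbp, the neutrophil-attracting chemokine of the alpha granule, stood higher in Control than in both other groups. In 5-ASA mice it ranged from -6.53 to -5.29 with a median of -6.02. Across the Control mice the lowest value was -4.83, the median -3.77 and the highest -2.47. The 4 Sham mice had -5.66, -6.27, -6.69 and -6.16. Every Control mouse was above every other mouse. Control 2, at -4.83, nevertheless lay below the lowest signal well above background on every 5-ASA array (-4.60 to -4.10). Control 6, at -4.35, was not well above background and lay below that signal on 5-ASA 1 and 2. For these Control mice the order against 5-ASA is among values too dim to be told apart from background. The highest, Control 1, was also the mouse with the most Hba-a1. Ppbp was well above background in 0 of 6 5-ASA mice, 5 of 6 Control mice and 0 of 4 Sham mice. It passed the filter on dim probes only through Control mice.

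The group means of Ppbp were -5.90 ± 0.50 in 5-ASA (SD, n = 6), -3.80 ± 0.80 in Control (SD, n = 6) and -6.20 ± 0.42 in Sham (SD, n = 4). The difference was -2.10 (SE 0.34) for 5-ASA minus Control, 2.40 (SE 0.38) for Control minus Sham and 0.29 (SE 0.38) for 5-ASA minus Sham. Since the 5-ASA and Sham values were not well above background, only bounds can be given for the ratios. With the reported background, Ppbp was at least 1.54-fold higher in Control than in 5-ASA, and at least 2.81-fold higher in Control than in Sham. The bound is the Control mean over the mean of the dim group, with each array raised to its lowest signal well above background. That lowest signal was -4.60 to -4.10 on the 5-ASA arrays and -5.50 to -5.03 on the Sham arrays, so the 2 bounds cannot be compared. With the normexp background, which raises dim spots, the log2 differences were -0.78 and 0.68, and these bounds do not apply there. In raw intensity the spot gave 9.78 to 22.7 units in 5-ASA, 3 of these 6 being surrogates, 31.4 to 159 units in Control and 7.63 to 17.9 units in Sham.

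Over all genes, limma called 1 of the 6 tested members (Ppbp) higher in Control than in Sham, where 0.00407% of all genes were called higher and 0.057% in either direction. Ppbp was itself the 1 gene called higher, so the first share is no background for it. The call of Ppbp was lost under 16 of 26 alternatives. Among them were the normexp background, the quantile scaling, the row as a covariate, each slide alone and leaving out any of 6 single mice. Limma called 0 members, and 0% of all genes, between 5-ASA and Control, where 4.05% had an unadjusted p of at most 0.05. Between 5-ASA and Sham 0 members were called, against 0.057% of all genes. Groups did not overlap for 2 of the 6 tested members, Ppbp and Treml1, between Control and Sham (2.71% of all genes with Control higher), and for Ppbp between 5-ASA and Control (0.122% with 5-ASA lower). The members were chosen on these contrasts, so nothing is read from the counts.

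**Figure D1:**
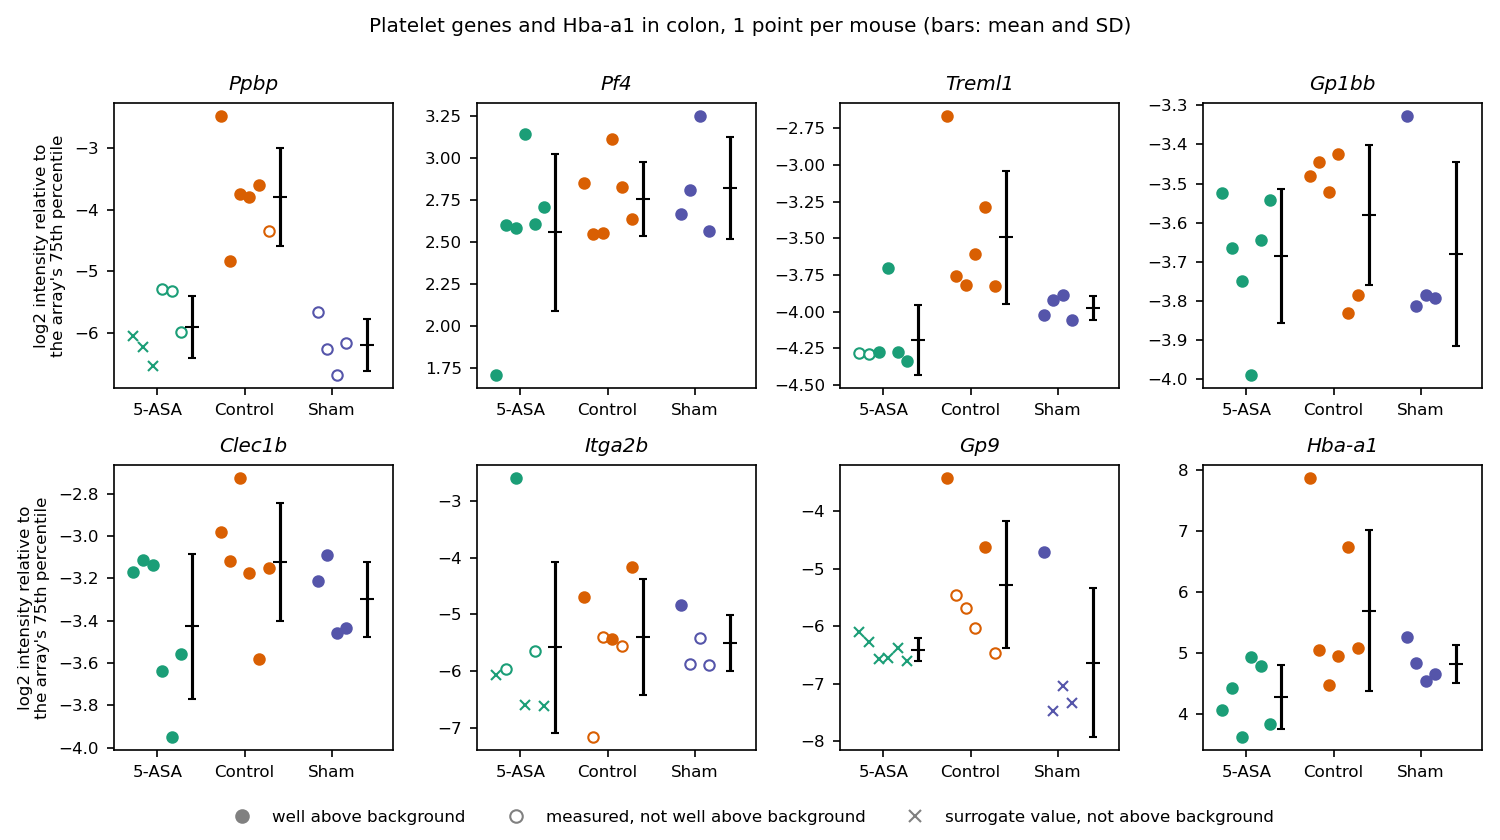
Level of the 7 genes and of Hba-a1 in each mouse, as log2 intensity relative to the array's 75th percentile (y axis, own range for each gene), for 5-ASA, Control and Sham. Filled points were well above background, open points were measured but not well above it, crosses are surrogate values, and bars give the mean and SD. For Ppbp the lowest Control point is at -4.83 and the highest of the others at -5.29, whereas the 3 groups overlap for Pf4. That lowest Control point is below the lowest signal well above background on every 5-ASA array.

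Pf4, the other alpha granule chemokine, did not follow its neighbour. In 5-ASA mice it ranged from 1.71 to 3.14 with a median of 2.61, and in Control mice from 2.55 to 3.12 with a median of 2.73. The 4 Sham mice had 2.67, 2.81, 3.25 and 2.56. The groups overlapped, and 5-ASA 1 was the lowest mouse. Pf4 was well above background on all 16 arrays, where Ppbp was on 5. The group means were 2.56 ± 0.47 in 5-ASA, 2.75 ± 0.22 in Control and 2.82 ± 0.30 in Sham (SD, n = 6, 6 and 4). The differences were -0.20 (SE 0.20) for 5-ASA minus Control, -0.07 (SE 0.22) for Control minus Sham and -0.26 (SE 0.22) for 5-ASA minus Sham, all smaller than the SD among 5-ASA mice.

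Treml1, the receptor stored in alpha granules, was also highest in Control mice, by less than Ppbp. In 5-ASA mice its values ran from -4.34 to -3.70 with a median of -4.28. Control mice ran from -3.83 to -2.67 with a median of -3.68. Sham mice had -4.03, -3.92, -3.89 and -4.06. All Control mice exceeded all Sham mice, and 1 mouse, 5-ASA 4, reached into the Control range. The difference was -0.70 (SE 0.18) for 5-ASA minus Control, 0.48 (SE 0.20) for Control minus Sham and -0.22 (SE 0.20) for 5-ASA minus Sham. Without Control 1, Control minus Sham was 0.31. Treml1 was well above background in 4 of 6 5-ASA mice, 6 of 6 Control mice and 4 of 4 Sham mice.

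Gp1bb and Gp9 are small chains of the von Willebrand factor receptor. The Gp1bb probe well above background on all 16 arrays (A_51_P151576, chr16:18621107-18621166, minus strand, mm9) had means of -3.69 ± 0.17 in 5-ASA, -3.58 ± 0.18 in Control and -3.68 ± 0.24 in Sham (SD, n = 6, 6 and 4). Its differences were -0.10 (SE 0.12) for 5-ASA minus Control and 0.10 (SE 0.13) for Control minus Sham. A second Gp1bb probe was well above background in Control 1 and 4 alone, and the third in no mouse, so both were left out of the fit.

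Gp9 was near the floor of the assay and was not tested. In 5-ASA mice all 6 values were surrogates, between -6.60 and -6.09. Control mice ran from -6.47 to -3.42 with a median of -5.57, all of them measured, and Control 1 and 5 were well above background. Of the Sham mice, Sham 1 had -4.72, well above background, and the others had surrogates of -7.47, -7.04 and -7.33. The difference was -1.13 (SE 0.51) for 5-ASA minus Control and 1.36 (SE 0.57) for Control minus Sham. In the second row, where surrogates are higher, it was -0.34 between 5-ASA and Control.

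Clec1b, the podoplanin receptor, had 3 probes on the same transcript that gave different patterns. Their sequences are shown because the choice of probe sets what is seen for this gene. They start at positions 417, 784 and 1024 of the transcript and lie on the plus strand of chromosome 6 in mm9, at chr6:129350113-129350172 (A_55_P1962010), chr6:129353604-129353663 (A_55_P1992617) and chr6:129355286-129355345 (A_55_P1962011, of which the first 30 bases are given).
Clec1b A_55_P1962010: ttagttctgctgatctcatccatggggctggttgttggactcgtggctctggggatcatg
Clec1b A_55_P1992617: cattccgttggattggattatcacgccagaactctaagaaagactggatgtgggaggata
Clec1b A_55_P1962011: ggatgtcagataagtgcttgatcatgcaat

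The probe starting at 417 was well above background on all 16 arrays and represented the gene in the fit. Its means were -3.43 ± 0.34 in 5-ASA, -3.12 ± 0.28 in Control and -3.30 ± 0.18 in Sham (SD, n = 6, 6 and 4), and the groups overlapped. The difference was -0.30 (SE 0.17) for 5-ASA minus Control and 0.18 (SE 0.19) for Control minus Sham.

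For the probe starting at 1024, all 5-ASA mice lay below all Control mice, as for 0.122% of all genes by their brightest probe. This probe did not represent the gene, so the count of tested members above leaves it out. Control 2, 5 and 6, at -5.62, -5.00 and -5.49, lay below the lowest signal well above background on any 5-ASA array (-4.60). For these mice the order is among values too dim to be told apart from background in 5-ASA. The probe ranged from -6.65 to -6.05 in 5-ASA mice, with 0 of 6 well above background and 3 surrogates. In Control mice it ranged from -5.62 to -3.76, with 4 of 6 well above background. The Sham values were -6.61, -5.29, -5.81 and -4.41, with 2 of 4 well above background. The difference was -1.68 (SE 0.36) for 5-ASA minus Control and 0.82 (SE 0.41) for Control minus Sham. With the normexp background these were -0.47 and 0.13. Control minus Sham was 0.46 without Sham 1 and 1.19 without Sham 4. The probe lies in spot row 376 of 384, within the outer 12 rows at the edge of the array.

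The probe starting at 784 had 2 far values, -2.16 in 5-ASA 6 and -1.98 in Control 6. Its other values ran from -6.63 to -4.66 in 5-ASA mice, from -5.90 to -3.74 in Control mice and from -6.87 to -4.70 in Sham mice. The difference was -1.31 (SE 0.77) for 5-ASA minus Control and 1.30 (SE 0.86) for Control minus Sham, each under 2 SE.

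**Figure D2:**
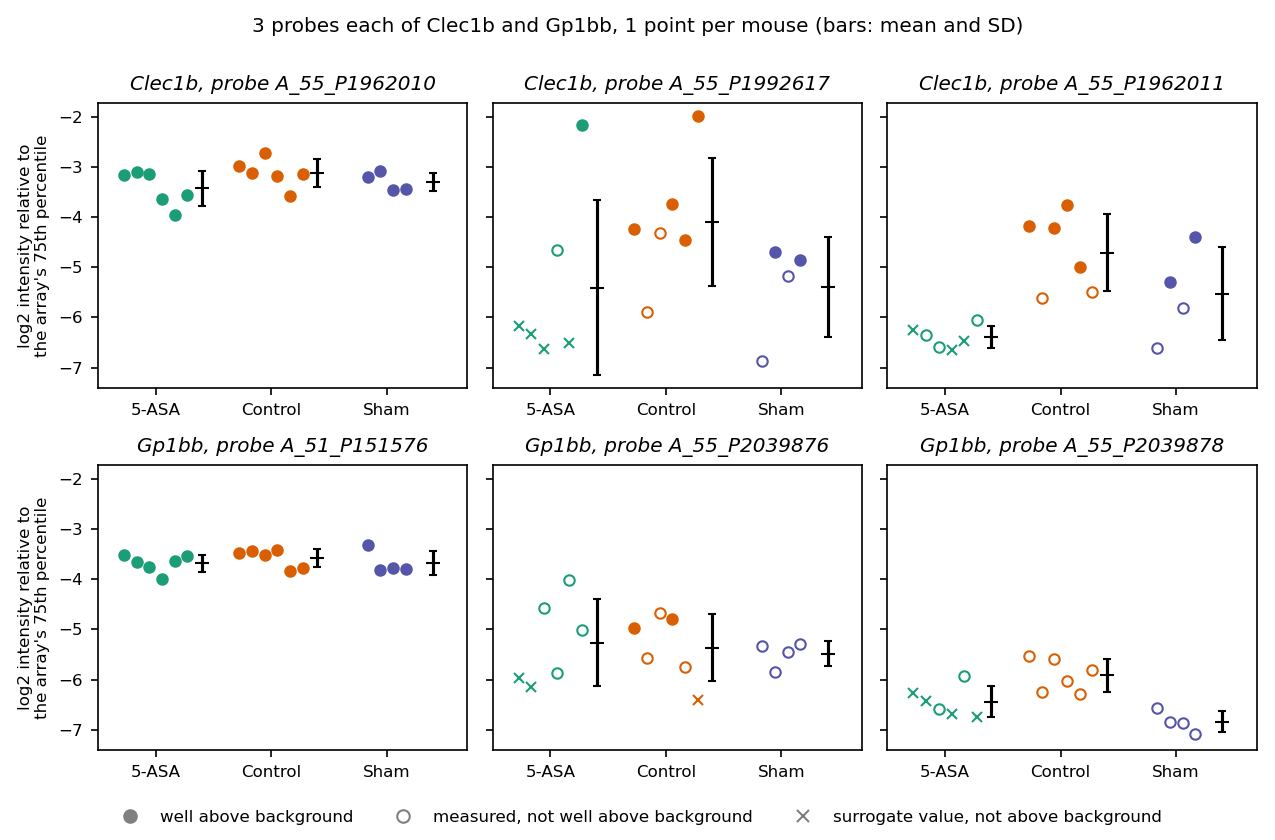
Level of 3 Clec1b probes (top) and 3 Gp1bb probes (bottom) in each mouse, as log2 intensity relative to the array's 75th percentile (shared y axis), for 5-ASA, Control and Sham. Symbols are filled where well above background, open where measured but not well above it and crosses where surrogate, and bars give the mean and SD. For both genes 1 probe was well above background on all 16 arrays with overlapping groups, and the other probes were dim on most arrays.

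Itga2b, the fibrinogen receptor chain that marks the megakaryocyte lineage, was dim in all groups. Its means were -5.58 ± 1.51 in 5-ASA, -5.40 ± 1.02 in Control and -5.50 ± 0.50 in Sham (SD, n = 6, 6 and 4). It was well above background in 1 of 6 5-ASA mice, 3 of 6 Control mice and 1 of 4 Sham mice. The single 5-ASA mouse, 5-ASA 3, had -2.59, above every other mouse in the study. The differences were -0.18 (SE 0.62) for 5-ASA minus Control and 0.10 (SE 0.70) for Control minus Sham. Single mice decided both, since 5-ASA minus Control was -0.78 without 5-ASA 3 and 0.07 without Control 6, and Control minus Sham was -0.14 without Control 6.

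Hba-a1, whose probe also carries the accession of Hba-a2, was higher in some Control mice. It ranged from 3.61 to 4.93 in 5-ASA mice with a median of 4.24, and from 4.47 to 7.88 in Control mice with a median of 5.06. The Sham mice had 5.26, 4.83, 4.53 and 4.65. The Control range was set by Control 1 (7.88) and Control 5 (6.74), and the other 4 Control mice lay within 4.47 to 5.08. The difference was -1.42 (SE 0.49) for 5-ASA minus Control and 0.87 (SE 0.54) for Control minus Sham. It was -0.50 for 5-ASA minus Control within the second row of the slides and 1.33 for Control minus Sham within the first row. Without Control 1, Control minus Sham was 0.44.

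Across the 16 mice, Treml1, Ppbp and Gp9 had the highest correlations with Hba-a1 among the 7 genes, though 11 of the 16 Ppbp values were not well above background and 9 of the 16 Gp9 values were surrogates. Pearson's r with Hba-a1 was 0.92 for Treml1 (Spearman's rho 0.79), 0.77 for Ppbp (0.67) and 0.77 for Gp9 (0.57). It was 0.29 for Pf4, 0.08 for Gp1bb, 0.04 for Itga2b, and 0.05, 0.16 and 0.45 for the Clec1b probes starting at 417, 784 and 1024. Without Control 1 and 5, the 2 mice farthest from the median of Hba-a1, r was 0.68 for Treml1, 0.47 for Ppbp and 0.29 for Gp9 (n = 14). The relation of Gp9 thus rests mostly on those mice, and those of Ppbp and Treml1 rest on them in part. Each pair of values shares an array and an RNA sample, and these r are descriptions.

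Within the 6 Control mice, the r of Ppbp with Hba-a1 was 0.77 and the rho 0.49. No such value is given for 5-ASA or Sham, where Ppbp was well above background in no mouse. The 4 Control mice with Hba-a1 of 4.47 to 5.08 had Ppbp levels of -4.83 to -3.75, above all 5-ASA and Sham mice. Of these, Control 2 lay below the lowest signal well above background on every 5-ASA array, and Control 6 was not well above background. Their order against 5-ASA mice is therefore not resolved.

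With the Hba-a1 level as a covariate in the fit, the difference of Ppbp was -1.35 for 5-ASA minus Control and 1.93 for Control minus Sham. That of Treml1 was -0.26 and 0.21, and that of Gp9 was -0.07 and 0.71, in the same order. This fit used Ppbp values of 5-ASA and Sham mice that were not well above background. Control 1 and 5 set the high end of Hba-a1 in it, and the part of blood in these differences was not tested. Without Control 1 and 5 the differences of Ppbp were -1.72 and 2.02, those of Treml1 -0.44 and 0.22, and those of Gp9 -0.50 and 0.73. Within the first row of the slides, which holds 4 Control and 4 Sham mice, Control minus Sham was 2.52 for Ppbp and 0.64 for Treml1. Within the second row, which holds 6 5-ASA and 2 Control mice, 5-ASA minus Control was -1.85 for Ppbp and -0.37 for Treml1.

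**Figure D3:**
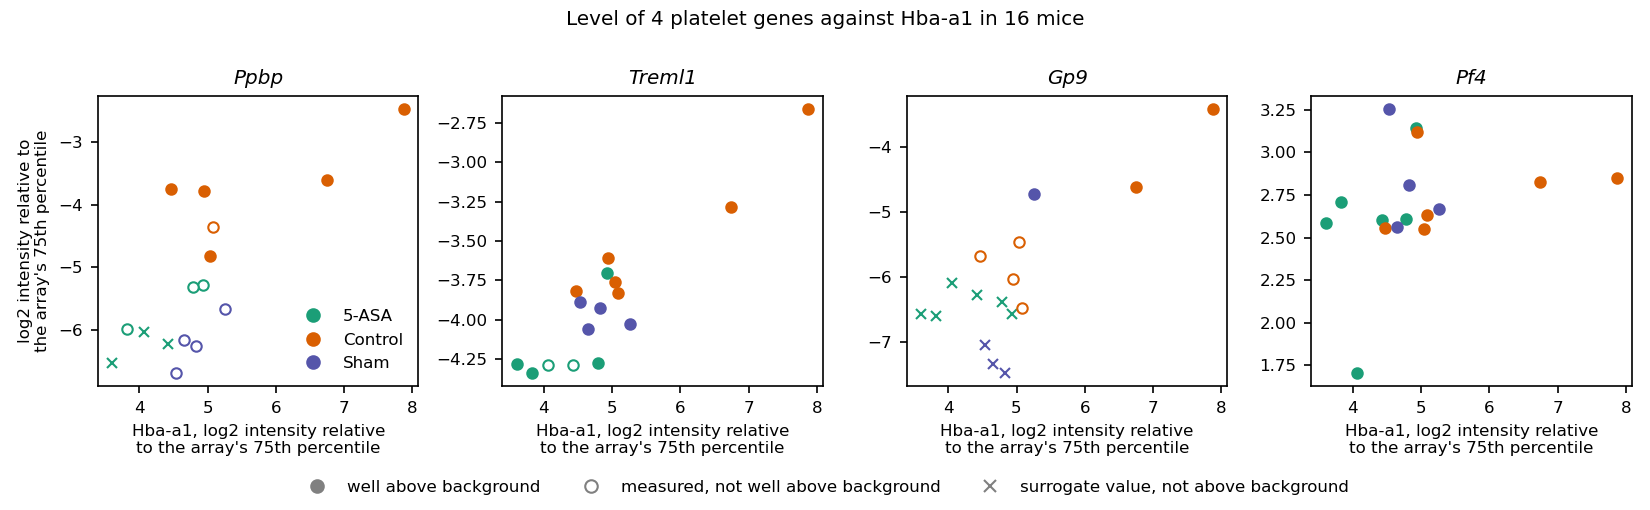
Level of Ppbp, Treml1, Gp9 and Pf4 (y axes) against Hba-a1 (x axis) in 16 mice, both as log2 intensity relative to the array's 75th percentile, with 5-ASA, Control and Sham in colours. Control 1 and 5 lie at the right at 7.88 and 6.74 of Hba-a1. Ppbp of Control mice lies above that of 5-ASA and Sham mice where Hba-a1 is alike, and Pf4 shows little slope. Ppbp of Control 2 is below the lowest signal well above background on every 5-ASA array, and that of Control 6 was not well above background.

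The 4 tested red cell markers include Hba-a1, so their relation to Ppbp is not separate from the one above. Their summed signal was taken as a log2 of the sum relative to the percentile. It spanned 3.69 to 5.05 in 5-ASA, 4.60 to 8.01 in Control and 4.62 to 5.38 in Sham. Hba-a1 made up most of that sum, with 7.88 against 8.01 in Control 1. The mean of these markers had an r of 0.83 with Ppbp, 0.92 with Treml1 and 0.83 with Gp9 over 16 mice, against 0.26 with Pf4. These r were not taken without Control 1 and 5. The part of the red cell markers in the group differences was not tested.

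Pf4 went with other markers. Its r with the mean of 8 tested macrophage markers, from 10 names in which Emr1 repeats Adgre1, was 0.86, and it was -0.07 for Ppbp. Their summed signal spanned 4.07 to 4.99 in 5-ASA, 4.42 to 5.47 in Control and 4.42 to 5.30 in Sham. The mean of the neutrophil markers, 9 of 12 tested, had an r of -0.01 with Pf4 and -0.02 with Ppbp. That mean ran from -1.82 in Sham 1 to 0.08 in Control 4. Their summed signal, in which the brightest markers weigh most, varied less. It spanned 7.08 to 7.34, 7.18 to 7.32 and 6.92 to 7.46 in the same 3 groups. The part of either cell type in the levels of Pf4 or Ppbp was not tested.

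Among 15710 other named genes, those with the pattern most like Ppbp over the 16 mice were Slc4a1 (r = 0.86), the red cell anion exchanger, Apol11b (0.83), Alas2 (0.82), the first enzyme of haem synthesis in red cells, Hbb-bt (0.80), a beta globin, and Ptx4 (0.80). Those most like Pf4 were Slc6a12 (0.84), Ppy (0.84), Gp6 (0.84), the collagen receptor of platelets, Folr2 (0.83), a folate receptor of tissue macrophages, and P2ry12 (0.83), the ADP receptor of platelets. No gene was in both sets, which says little for sets of 5 among so many genes. Ppbp was well above background on 5 of the 16 arrays, Apol11b on 5 and Ptx4 on 7, so their likeness rests largely on dim values.

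The diarrhea score of each mouse, 0 to 1.5 in the labels, was not used to pick the genes. With group in the model, the slope of Ppbp was -0.52 per score unit (SE 0.50, adjusted p = 0.858 by limma). Since Ppbp was well above background only in Control mice, this slope says little about the other groups, and within the 6 Control mice alone it was -0.27 (adjusted p = 0.959 by limma). Treml1 had -0.32 (SE 0.26, adjusted p = 0.808) and Pf4 0.29 (SE 0.29, adjusted p = 0.866). Gp1bb had -0.18, Clec1b 0.33 and Itga2b 0.40, with adjusted p of 0.853, 0.763 and 0.978. Over all genes limma called 0%, and 7.76% had an unadjusted p of at most 0.05. Of the 6 members 0 did, which is near that share for so few genes, so nothing is read from it.

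Other genes of the pathway were taken from 6 lists, and limma called 0 genes of any list in any group comparison or with the score. Of 16 other platelet surface receptors and integrins, 12 were tested. Their median difference was -0.03 for 5-ASA minus Control and -0.16 for Control minus Sham, where the median of all genes was -0.0013 and 0.0077. With unadjusted p of at most 0.05, 1 was lower in 5-ASA than in Control, as were 2.64% of all genes (F2rl3, the thrombin receptor PAR4, -0.49, SE 0.17, adjusted p = 0.999) and 1 higher in Control than in Sham, as were 5.64% (P2rx1, an ATP-gated channel, 0.53, SE 0.23, adjusted p = 0.559). Tbxa2r, the thromboxane receptor, had 0.26 and -0.35 in the same 2 comparisons. Gp1ba and Gp5, the other chains of the von Willebrand factor receptor, were well above background on 1 and 0 arrays and were not tested.

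All 18 platelet granule and signalling genes were tested, with median differences of -0.16 for 5-ASA minus Control and -0.10 for Control minus Sham. Unadjusted, 1 was lower in 5-ASA than in Control (2.64% of all genes) and 2 were lower in Control than in Sham (3.24% of all genes). Rap1b, a small GTPase of integrin activation, had -0.16 (adjusted p = 0.999) and F13a1, a chain of clotting factor XIII, had -0.56 for 5-ASA minus Control. Rasgrp2, which activates Rap1, had -0.40 and the adaptor Sh2b3 -0.29 for Control minus Sham. Of 11 megakaryocyte transcription factors and cytoskeletal genes 10 were tested, with medians of -0.21 and -0.05 and, unadjusted, 2 and 1 genes lower (2.64% and 3.24% of all genes). The factors Zfpm1 and Fli1 had -0.36 and -0.43 for 5-ASA minus Control, while Cmtm5 had -0.84 and Rab27b 0.16 for Control minus Sham. Gata1 was well above background on 2 arrays and was not tested.

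Erythroid genes had larger differences without passing the test. The list held 16 names, in which Epb4.2 repeats Epb42, and 9 genes were tested. Their median differences were -1.49 for 5-ASA minus Control and 0.95 for Control minus Sham. Unadjusted, 7 of the 9 were lower in 5-ASA than in Control (2.64% of all genes), and 1 was higher in Control than in Sham (5.64%). Slc4a1 had -1.97 (SE 0.51) and 1.47 (SE 0.57), and Alas2 had -1.96 (SE 0.59) and 1.29 (SE 0.66), with adjusted p of 0.999 for both genes in the first comparison and of 0.559 and 0.565 in the second. With the diarrhea score their median slope was -1.56 per unit, at a smallest adjusted p of 0.641 by limma. Of the 9, 8 had an unadjusted p of at most 0.05 with a negative slope (4.26% of all genes). Elsewhere the median slopes were 0.02 (surface receptors), 0.10 (granule and signalling), 0.32 (megakaryocyte), 1.69 (chemokines) and 0.44 (receptors and ligands). Hba-a1 is on the erythroid list, and all its genes share the same arrays and RNA samples, so the counts are not of independent genes. Control 1 and 5, the mice highest in Hba-a1, had a score of 0.5, the lowest among Control mice. The part of these mice in the counts was not tested.

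Of the 5 other chemokines beside Ppbp and Pf4 only Cxcl1 and Cxcl5 were tested, and Cxcl2, Cxcl3 and Cxcl15 were well above background on 1, 1 and 0 arrays. Cxcl1, which attracts neutrophils, had -0.79 (SE 0.67) for 5-ASA minus Control and 0.79 (SE 0.74) for Control minus Sham. Cxcl5 had 0.57 (SE 1.03) and 1.48 (SE 1.15), with adjusted p of 0.999 and 0.704. Of 10 receptors and ligands of the members, 4 were tested. Cxcr2, the receptor of the Ppbp product, and its relative Cxcr1 were well above background on 0 arrays. Pdpn, the podoplanin that Clec1b binds, had 0.12 and -0.12, and Vwf, the ligand of the receptor of Gp1bb and Gp9, had -0.15 and 0.10 in the same 2 comparisons.

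**Figure D4:**
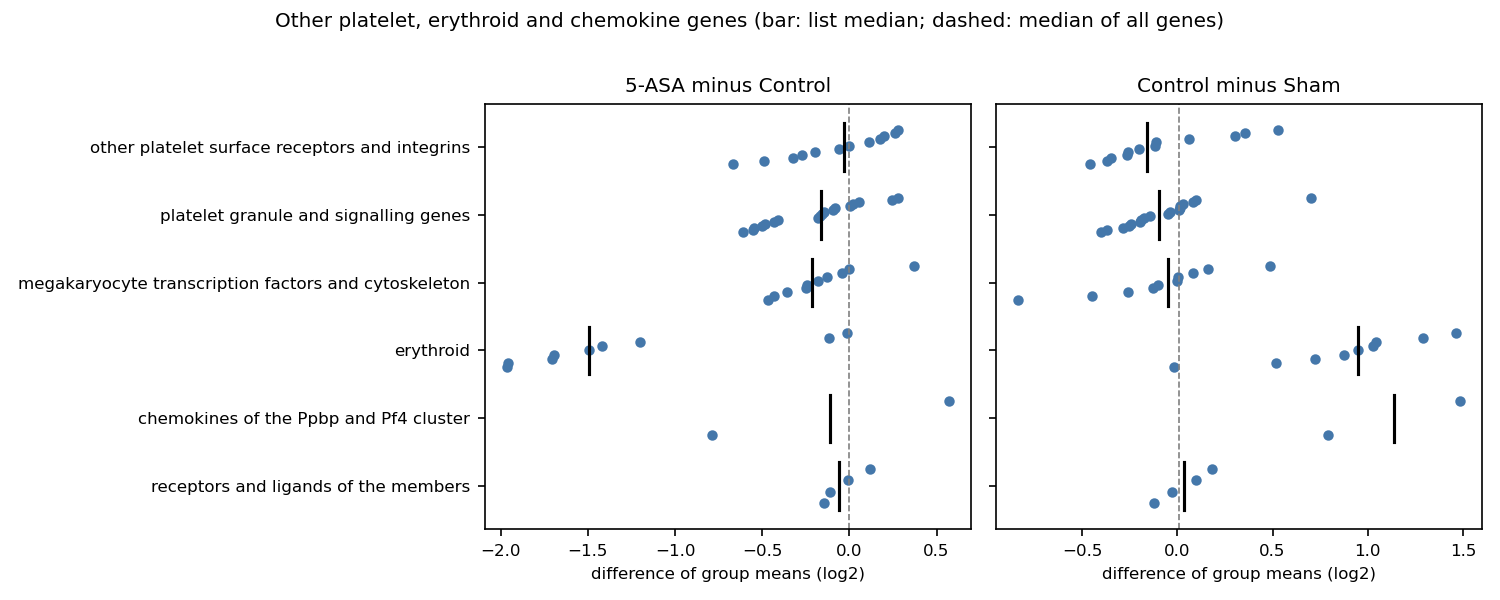
Difference of group means (log2, x axes) of each tested gene in 6 lists of platelet, erythroid and chemokine genes, for 5-ASA minus Control (left) and Control minus Sham (right). Points are genes, black bars are list medians and the dashed line is the median of all genes. The erythroid median lies at -1.49 and 0.95 and those of the 3 platelet lists between -0.21 and -0.03.

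Settings other than the reported one left the sign of the Ppbp differences in place for 5-ASA minus Control and Control minus Sham. With the normexp background, which raises dim spots, they were -0.78 and 0.68, and those of Gp9 were -0.51 and 0.22. Within slide 1 Ppbp had -2.59 and 2.28, and within slide 2 it had -1.62 and 2.51. Leaving out each mouse in turn gave -2.31 to -1.84 and 2.13 to 2.60.

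**Figure D5:**
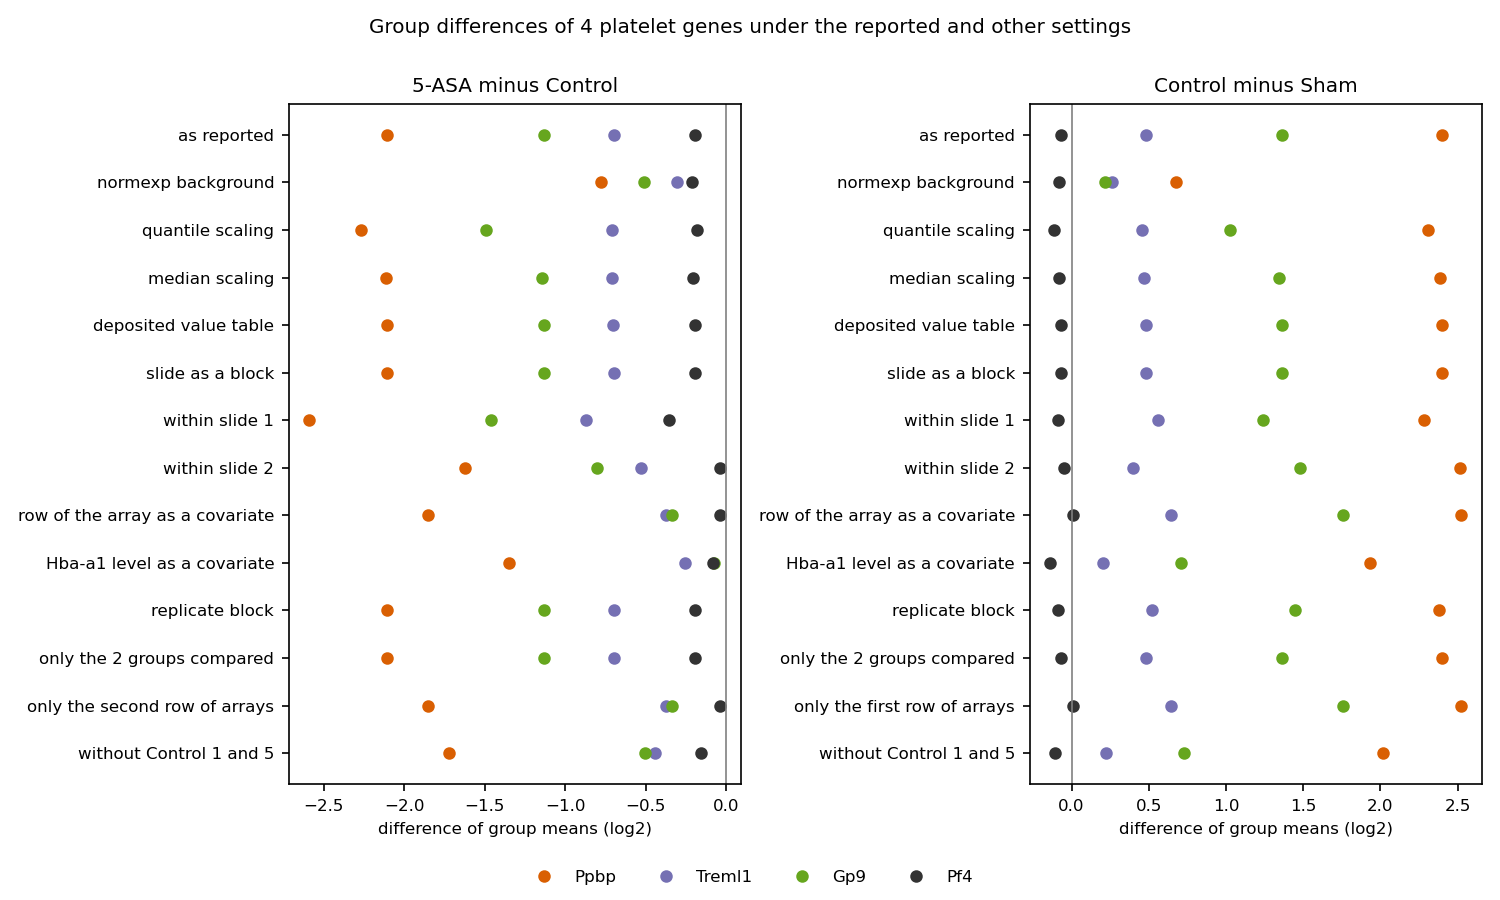
Difference of group means (log2, x axes) of Ppbp, Treml1, Gp9 and Pf4 under the reported and 13 other settings (y axis), for 5-ASA minus Control (left) and Control minus Sham (right). Points are differences. Ppbp kept its sign under all settings drawn and came nearest to 0 with the normexp background, at -0.78 and 0.68.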

How the data were processed

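Spot intensities were read from 1-colour scans by the authors with Agilent Feature Extraction, which subtracted the background without scaling arrays to each other, per the file headers. Mean spot and local background intensities, used for an alternative, are uncorrected pixel values in the deposited files. The deposited value table, which the authors put in GEO, has no stated scale. Compared with the scanner values, the deposited table of the authors held log2 intensity shifted by the 75th percentile and centred by the median Sham value of every probe, so its scale, centring and direction were inferred. Its column medians were 0.223, 0.177, 0.135, 0.136, 0.113 and 0.111 for 5-ASA 1 to 6, -0.0323, -0.0616, 0.206, -0.188, -0.0434 and 0.147 for Control 1 to 6, and -0.000851, -0.0461, 0.0709 and -0.00654 for Sham 1 to 4.

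Here, log2 of the processed intensity minus the array's 75th percentile was taken after control and outlying spots were dropped and repeated spots averaged. The filter on dim probes asked for 4 or more arrays well above background and left 35087 probes, and a gene with several took the brightest. Probe names were updated by accession through the RefSeq table (27656 of 55681 probes). Differences, SE and adjusted p came from limma 3.58.1 in R 4.3.3, in 1 model of the 3 groups, with Benjamini-Hochberg adjustment over 24543 genes at 0.05. The SE of members and Hba-a1 come from the same limma model over all 55681 probes, since some member probes fail the filter. No array had a saturated spot. The number of arrays limits the precision.

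The members and lists were chosen with earlier results of these data known. Named were all 7 members and Hba-a1, any list gene called, of each list the 2 genes with the smallest p in Control against Sham and in 5-ASA against Control, and the 5 named genes most correlated with Ppbp and with Pf4. Genes of a list below the filter are named beyond that rule, as are those chosen for being untested. Alternatives were the background correction, the scaling, the filter, the probe of a gene, slide and row, the outer 12 spot rows, Hba-a1 as a covariate, the replicate number and each mouse left out. The row subsets and the leaving out of Control 1 and 5 were added after the data were seen.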

Additional observations from a re-analysis of the deposited data

Results flagged for a closer look

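In groups of 4 or 6 mice, the highest or lowest value was set against the others by Dixon's test, which by chance picks about 1 in 20 groups. It picked 4 of the 36 groups tested. The groups share the same arrays and some hold surrogate values, so that rate does not apply to them and nothing is read from the count. Itga2b was -2.59 in 5-ASA 3, where the nearest 5-ASA mouse had -5.64. Treml1 was -3.70 in 5-ASA 4, where the nearest had -4.27. Gp9 was -4.72 in Sham 1, where the nearest Sham value, a surrogate, was -7.04. Sham 1 held the only measured Gp9 value of that group. Gp1bb (A_51_P151576) was -3.33 in Sham 1, where the nearest had -3.79. Sham 1 was the mouse concerned for both Gp9 and Gp1bb, and its Hba-a1 of 5.26 was the highest of the Sham mice. No cause was tested.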

How the results depend on the processing

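Over all genes, the 14 calls of Control against Sham became 2 with at least 8 arrays well above background, 4 within slide 1, 1 within slide 2, 0 without the outer 12 spot rows, 7 with only the 2 groups compared and 1 in the first row of arrays, and leaving out single mice gave 10 to 15. The 0 calls of 5-ASA against Control became 2937 without the filter on dim probes, 1 within slide 2 and 7 with the row as a covariate, and stayed 0 when any mouse was left out. The 14 calls of 5-ASA against Sham became 3271 without the filter, 3 with at least 8 arrays, 2 within slide 1, 4 within slide 2, 8 with the row as a covariate and 0 without the outer rows, and 11 to 23 with single mice left out, the highest without 5-ASA 4. The 0 calls of the diarrhea score slope became 0 to 46 with single mice left out, the 46 being without Control 3. The causes were not tested. The number of members called in Control against Sham, 1 as reported, was 0 under 16 of 26 alternatives, among them the normexp background, the quantile scaling, the row as a covariate, each slide alone and leaving out Sham 2, 3 or 4 or Control 3, 4 or 5. In 5-ASA against Control it was 0 as reported and 2 without the filter, where 2937 genes were called over all genes. No share of all genes is given for that setting, so nothing is read from the 2. With the replicate block the Control against Sham count was 0 and the calls over all genes were 10, against Sham for 5-ASA 12, and 0 for 5-ASA against Control. The 14 pairs of same-numbered mice had correlations of -0.21 to 0.61, 8 of them over 0.1. They were not compared with pairs of different number, so whether the numbers pair the mice was not tested. The differences of the 11 member probes and Hba-a1 kept their sign in 763 of 823 values under alternatives, namely 289 of 298 for 5-ASA minus Control, 214 of 251 for 5-ASA minus Sham and 260 of 274 for Control minus Sham. The sign of 5-ASA minus Sham changed for Ppbp (0.29 as reported, -0.31 within slide 1) and for Hba-a1 (-0.55 as reported, 0.83 with the row as a covariate), and that of Control minus Sham for Itga2b (0.10 as reported, -0.40 within slide 1). Signal over background limits Ppbp, Gp9, Itga2b and the dim Clec1b and Gp1bb probes, where differences are bounds or rest on surrogate values.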
